A study of Drosophila melanogaster with 4 samples.

Results

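The genes described here encode the proteins of the cytoplasmic ribosome of Drosophila melanogaster, and were taken from the deposited expression table by name. The rule kept symbols beginning with RpL, RpS or RpLP followed by a number, together with sta and sop, and left out RpS5a, RpS5b, RpS10a, RpS10b, RpS19a, RpS19b, RpL22, RpL37a and RpL37b. It found 79 of the 17475 genes in the table, 32 of the small subunit and 47 of the large subunit. The gene also known as sop is listed as RpS2. The rule was meant to leave out paralog pairs, yet 10 members still form 5 pairs whose symbols differ in a final a or b (RpS14, RpS15A, RpS28, RpL10A and RpL34).

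RNA came from ovaries of 7-day-old adult flies kept at 25 °C, with 2 libraries from wh7 flies and 2 from control flies. wh7 is a mutant allele of wuho in the w1118 strain background, and the controls are w1118 flies labelled wild type, so both genotypes share that white-eyed laboratory strain. The product of wuho is a protein with WD repeats, related to the partner subunit of a tRNA methyltransferase. The study compared gene expression in ovaries with and without the mutation. The labels do not state that libraries of 1 genotype came from different flies. The p-values therefore reflect the spread among these 4 libraries alone, and that spread may be technical.

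A ribosome is built from a small subunit, which holds the mRNA and reads its codons, and a large subunit, which joins amino acids and passes the growing chain through an exit tunnel. Most ribosomal proteins are needed in equal amount, and in flies loss of 1 copy of many of these genes gives the Minute phenotype of slow development and thin bristles. Ovarian nurse cells make ribosomes in large numbers and pass them to the oocyte, and in the fly ovary ribosome production and translation of ribosomal protein mRNAs have been tied to the differentiation of germline stem cells.

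Levels are FPKM as deposited, that is, reads scaled to transcript length and to the size of the library. wuho itself was at 0.832 and 0.646 FPKM in the wh7 libraries, against 24.7 and 25.4 FPKM in the controls, although the description fields name another experiment, on tkv. All 15 germline markers were expressed, with sums of 2188 and 2322 FPKM in wh7 and 2631 and 2683 FPKM in the controls, and 1 was called higher and 5 lower. Muscle sheath markers, in contrast, summed to 1574 and 2653 FPKM in wh7 and 401 and 431 FPKM in the controls, with 12 of 13 called higher. Hemocyte markers (4 of 5 tested called higher, of 8 listed) summed to 205 and 269 FPKM in wh7 and to 29.6 and 47.3 FPKM in the controls. For fat body markers (3 of 4 tested called higher, of 7) the sums were 585 and 698 FPKM in wh7 and 123 and 370 FPKM in the controls. Neural markers (3 of 3 tested called higher, of 6) came to 12.6 and 13.5 FPKM in wh7 and 2.56 and 3.34 FPKM in the controls, and testis markers (2 of 3 tested called higher, of 8) to 9.02 and 9.59 FPKM in wh7 and 2.96 and 2.89 FPKM in the controls. No marker matched in these lists was at 0 in all 4 libraries. Over all tested genes 21.2% were called higher and 18.4% lower. Follicle cell markers, which include eggshell genes (5 of 13 tested called higher, 0 lower), summed to 9079 and 5473 FPKM in wh7 and to 2954 and 14648 FPKM in the controls, so the 2 control libraries stood apart from each other. The follicle cell and fat body lists share the gene Yp1, so their sums are not independent. In dissected tissue, fewer cells of a type and less RNA per cell cannot be told apart, and the part of cell makeup in the results below was not tested.

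Cytoplasmic ribosomal protein transcripts stood higher in wh7 ovaries, by a small and nearly uniform amount, but few single genes passed the test. Among the 77 genes that reached 1 FPKM in 2 or more libraries, 76 had a higher mean in wh7, and the median gene was at 1.31 times the control level. The size depended on the scaling: after quantile normalization the median log2 change was 0.15, against 0.39 as reported, and 69 of the 77 were higher. limma, fitted to log2(FPKM + 1) across all 8580 genes that passed this filter, called 6 of the 77 higher and 0 lower at a Benjamini-Hochberg adjusted p under 0.05. Over all tested genes 21.2% were called higher and 18.4% lower, so the 7.79% called among ribosomal protein genes lay below the background. A further 25 genes had adjusted p between 0.05 and 0.10, and 26 of the 77 had an unadjusted p under 0.05. None of the 6 calls was kept without control 1, without wh7 1 or without wh7 2, while 44 genes were called without control 2, where 13.2% of all tested genes were called higher. A fit without 1 library takes a gene's own spread from the other genotype alone, so its calls leave out the spread within the reduced genotype. When each library was scaled to the same FPKM sum, 50 of the 77 were called higher, against 20.3% of all genes tested, and 0 lower.

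The 2 genotypes did not overlap, with both wh7 libraries above both controls, in 72 of the 77 genes, and they overlapped in RpL41, RpL29, RpS12, RpS15Ab and RpS2. Among all tested genes this held for 35.7%, and the reverse order, seen in 0 of the 77, held for 41.3%. Control 1 was the lowest of the 4 libraries in 76 of the 77. The genes thus moved together between libraries, and the 72 are not separate observations. The log2 change had a median of 0.39 and an interquartile range of 0.12 over these genes, against a median of -0.041 and an interquartile range of 0.758 over all tested genes. Its standard deviation was 0.110 over the 77 and 0.892 over all tested genes. A narrow range was not particular to this set. The 25th and 75th percentiles were 0.311 and 0.432 here, and -0.129 and -0.018 over 13 proteasome core genes. Changes between 0.2 and 0.6 were found in 72 of the 77, and in 11.8% of all tested genes. The authors' deposited table marked 0 of the 79 as significant, where 7.23% of all genes in that table were marked significant and higher. Its lowest q among the 77 was 0.144. The authors' unadjusted p was under 0.05 for 5 of the 79, among them RpS28a, which was near 0 FPKM. The share of all genes under that value was not counted. A separate list of ribosomal protein genes from the authors held 11 genes, 5 of them in this set, with 4 of the 11 marked significant.

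**Figure D1:**
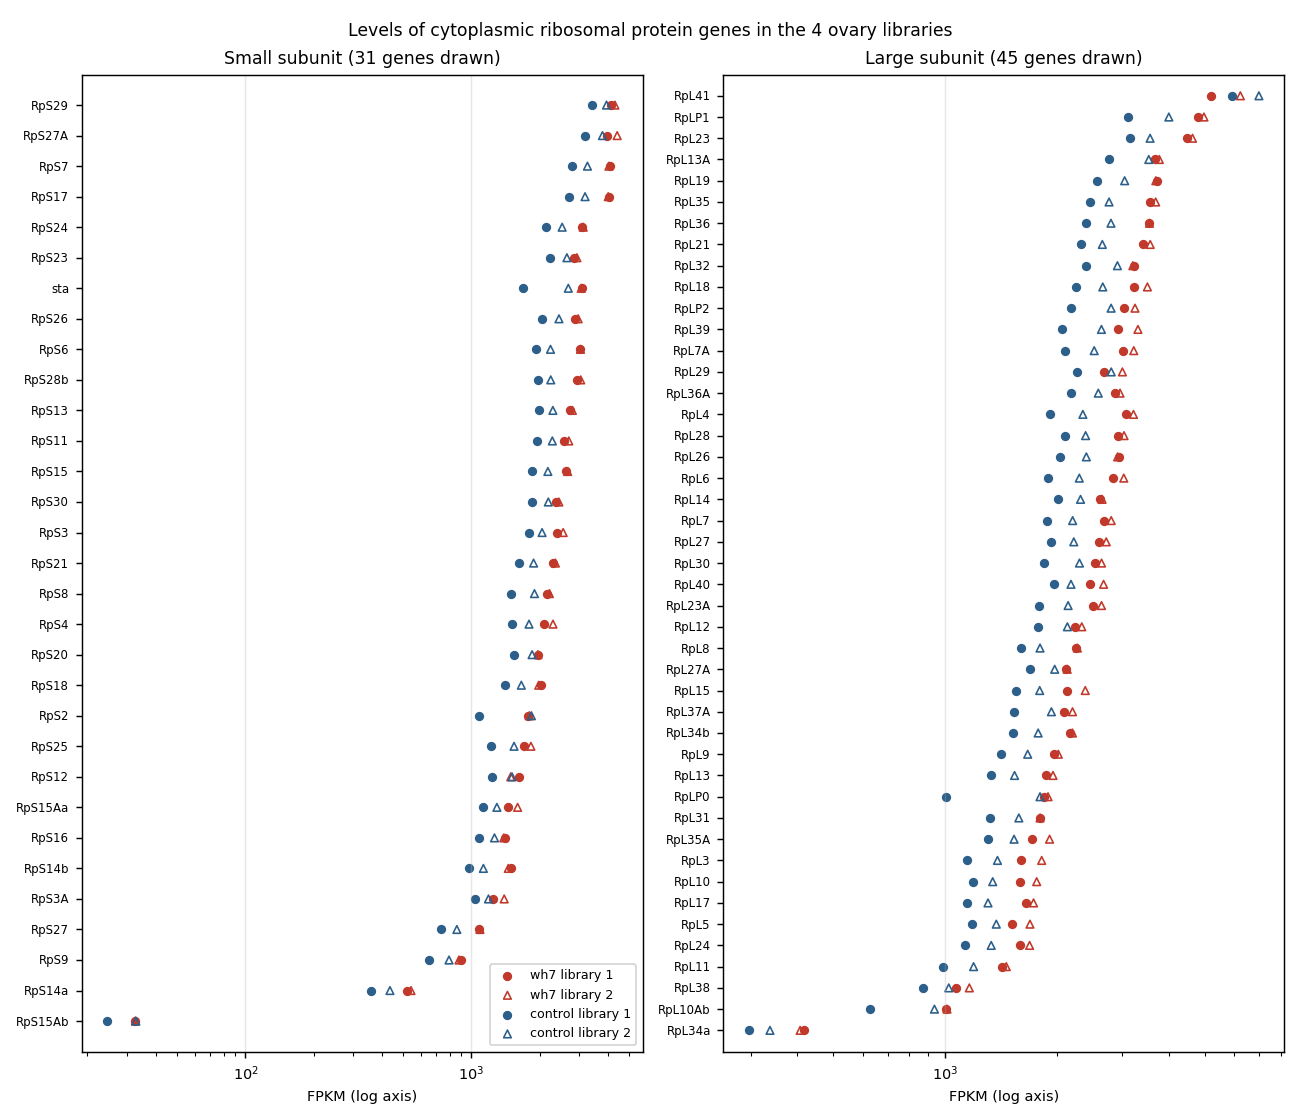
Levels of the tested genes, 1 of them not drawn, in FPKM on a log axis, with 1 row per gene and 1 point per library (wh7 red, control blue, circles for library 1 and triangles for library 2), small subunit left and large subunit right. Both red points lie to the right of both blue points in the rows drawn other than RpL41, RpL29, RpS12, RpS15Ab and RpS2, and control 1 is the leftmost point in the rows drawn other than RpL41.

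Together the 79 genes held 26.2% of all FPKM in each wh7 library, against 20.2% and 21.8% in the controls. The means were 26.2 ± 0.0477% in wh7 and 21.0 ± 1.13% in the controls (SD, n = 2 each), a difference of 5.19 percentage points. An exact two-sided permutation test gave p = 0.33, the smallest that 2 libraries against 2 allow. Small subunit genes held 9.74% and 9.61% of FPKM in wh7 and 7.42% and 8.04% in the controls, and large subunit genes held 16.4% and 16.6% in wh7 and 12.8% and 13.8% in the controls. The ratio of summed large to small subunit FPKM was 1.71 ± 0.0313 in wh7 and 1.72 ± 0.00853 in the controls (SD, n = 2 each), a difference smaller than the spread between libraries (exact permutation p = 1). Of the 100 genes with the highest mean FPKM in these ovaries 66 belong to this set. The other 34, among them 3 paralogs that the rule left out, had a median log2 change of -0.073. Of these 34, 1 was called higher and 3 lower, against 21.2% and 18.4% of all tested genes.

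The 2 control libraries differed from each other in these genes, and the 2 wh7 libraries less so. Control 1 was below control 2 in 77 of 77 genes, by a median of 0.24 on the log2 scale, where the median gap over all tested genes was 0.00171. Between wh7 2 and wh7 1 the median gap was 0.053. Without control 1 the median change over the 77 genes was 0.26, with 74 higher and 0 called, and without control 2 it was 0.51. The follicle cell marker sum, 2954 FPKM in control 1 and 14648 FPKM in control 2, also differed between the controls. In the wh7 libraries that sum was 9079 FPKM in wh7 1 and 5473 FPKM in wh7 2, while 65 of the 77 genes were lower in wh7 1 than in wh7 2. Its part in the result was not tested. From genes with a single annotated transcript, 1 FPKM stood for about 19.1 to 19.8 reads in 1 kb, which puts the median ribosomal protein gene at about 24939 to 33972 reads per library.

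**Figure D2:**
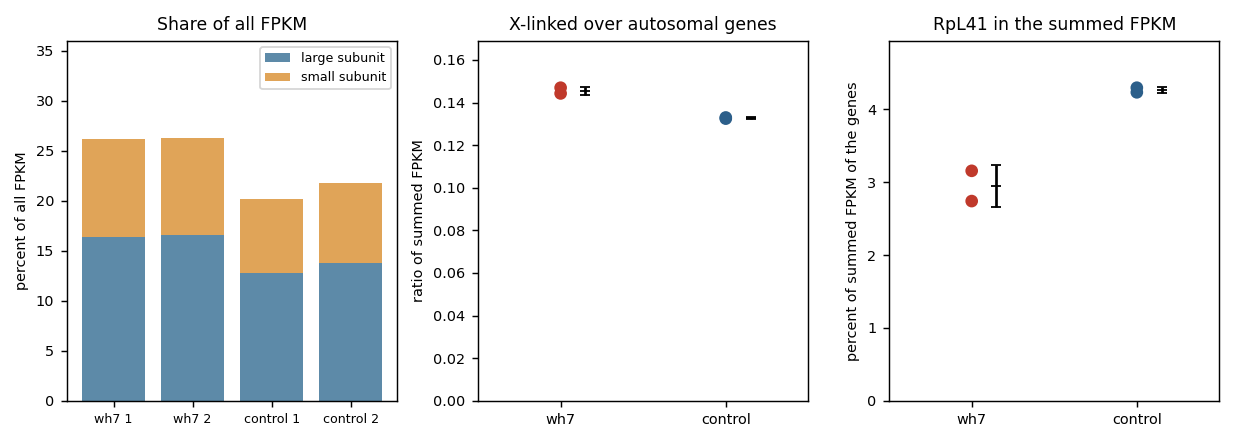
Left, percent of all FPKM held by large and small subunit genes in each library; middle, summed FPKM of X-linked genes over autosomal genes; right, percent of the summed FPKM of the 79 genes that came from RpL41. Points are libraries, and the marks beside them are mean ± SD (n = 2); the 2 wh7 libraries lie above both controls on the left and in the middle, and below both on the right.

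Small subunit genes were higher in 31 of 31 tested, with a median log2 change of 0.37 and 4 called. Counts of calls in subunits and regions are to be read beside the 21.2% of all tested genes called higher. RpS6, which encodes the classic substrate of S6 kinase in growth signalling, was at 3032 and 3035 FPKM in the wh7 libraries, against 1934 and 2237 FPKM in the controls. Both wh7 libraries lay well above the controls and differed little from each other, and the change of 0.54 ± 0.154 (SE) passed the test (limma adjusted p = 0.0478). After quantile normalization it was 0.28 and was not called (limma adjusted p = 0.119). The gene lies on chromosome X at 7899624 to 7901331 (BDGP6 annotation, minus strand). RpS27, which encodes a zinc-binding protein of the small subunit, was at 1076 and 1090.0 FPKM in the wh7 libraries, against 729.9 and 862 FPKM in the controls. It rose to 1.36 times the control mean (log2 change 0.45 ± 0.121; limma adjusted p = 0.0432; 3R, 25245955 to 25247514).

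Around the path where mRNA leaves the small subunit, 8 of 8 tested genes were higher, with a median of 0.44. RpS14a and RpS14b, which encode a protein of the platform beside the mRNA, are tandem copies on X at 7933742 to 7934677 and 7934898 to 7935792, so reads may be split between them uncertainly. RpS14b was at 1491 and 1455 FPKM in the wh7 libraries, against 970.1 and 1129 FPKM in the controls, and the change was 0.49 ± 0.126 (SE; limma adjusted p = 0.0378). RpS14a was at 521 and 540.0 FPKM in the wh7 libraries, against 358 and 436 FPKM in the controls (change 0.42 ± 0.121; limma adjusted p = 0.0488), and without control 1 its change was 0.28. Both copies rose, and the ratio of RpS14b to RpS14a was 2.78 ± 0.119 in wh7 and 2.65 ± 0.0864 in the controls (SD, n = 2 each), with overlap between the genotypes. RpS28b, another gene of this region, had a larger change of 0.51 ± 0.152 but missed the threshold (limma adjusted p = 0.0547). sta, whose product is the counterpart of the human laminin receptor protein RPSA and sits near the mRNA exit, was at 3094 and 3058 FPKM in the wh7 libraries, against 1683 and 2681 FPKM in the controls. Its groups did not overlap, but the controls lay far apart, and the change was 0.53 ± 0.260 (SE; limma adjusted p = 0.161). Without control 1 it was 0.20. Without control 2 it was 0.87 and called, in a fit that leaves out the spread between the controls.

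Genes of the mRNA entry and decoding side had a median change of 0.31, with 5 of 5 higher and 0 called. RpS3, which lines the mRNA entry and in other contexts is known for a role in DNA repair, was at 2399 and 2544 FPKM in the wh7 libraries, against 1799 and 2052 FPKM in the controls (change 0.36 ± 0.146; limma adjusted p = 0.108). RpS2, the gene of the string of pearls mutation that arrests egg chambers in flies, was at 1784 and 1802 FPKM in the wh7 libraries, against 1085 and 1841 FPKM in the controls. Here the groups overlapped, because control 2 was above both wh7 libraries. Genes of the small subunit head had the lowest median of any region, at 0.27, with 8 of 8 higher and 0 called. RpS12, which flies use in competition between cells of unlike ribosomal protein dosage, was at 1622 and 1492 FPKM in the wh7 libraries, against 1236 and 1512 FPKM in the controls, with 1 wh7 library below control 2. RpS29, the most abundant small subunit transcript, was at 4131 and 4309.9 FPKM in the wh7 libraries, against 3426 and 3957 FPKM in the controls. The regions were assigned from textbook knowledge after values had been seen, and differences between them were not tested.

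Large subunit genes were higher in 45 of 46 tested, with a median log2 change of 0.41 and 2 called, where 21.2% of all tested genes were called higher. Proteins that line the exit tunnel or ring its mouth were represented by 8 genes, 8 of them higher, with a median of 0.41. RpL17, one of these, was at 1654 and 1729 FPKM in the wh7 libraries, against 1146 and 1304 FPKM in the controls, so the libraries of each genotype lay close together. It rose to 1.38 times the control mean (change 0.47 ± 0.126 SE; limma adjusted p = 0.0431; X, 6741537 to 6744238, minus strand). After quantile normalization it was 0.27 and was not called (limma adjusted p = 0.0841). RpL4, which reaches into the tunnel wall, was at 3062 and 3213 FPKM in the wh7 libraries, against 1919.5 and 2348 FPKM in the controls. Its change of 0.56 ± 0.170 (SE) was the largest of the 77 but missed the threshold (limma adjusted p = 0.0557), and its deposited locus of 15033 bp is longer than the annotated gene of 2068 bp. RpL34a, the second gene called in this subunit, was at 417 and 407 FPKM in the wh7 libraries, against 296 and 337 FPKM in the controls (change 0.38 ± 0.0958; limma adjusted p = 0.0365; 3R, 26058420 to 26059267). RpL4 and RpS12, like RpL3, RpL5, RpL8, RpL10, RpL11 and RpS3A, were chosen after their values were seen.

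Near the catalytic centre, RpL3, RpL8 and RpL10 had changes between 0.40 and 0.44, with 0 called. The partners of 5S RNA, RpL5 and RpL11, which together with that RNA form a particle that enters the large subunit as 1 unit, had changes of 0.33 and 0.41. The acidic stalk recruits the elongation factors and consists of P0 with several copies of P1 and P2. RpLP1 was at 4796 and 4975 FPKM in the wh7 libraries, against 3116 and 4001 FPKM in the controls, the second highest of all these genes after RpL41. RpL23, of the body of the large subunit, was also among the 5 highest, at 4467 and 4634 FPKM in the wh7 libraries, against 3153 and 3562 FPKM in the controls. RpLP2 was at 3034 and 3243 FPKM in the wh7 libraries, against 2182 and 2797 FPKM in the controls, and RpLP0 at 1839.8 and 1892 FPKM in the wh7 libraries, against 1006 and 1800.0 FPKM in the controls. In all 3 the wh7 libraries lay above both controls, yet limma adjusted p was 0.137, 0.201 and 0.256. The sum of RpLP1 and RpLP2 over RpLP0 was 4.30 ± 0.0625 in wh7 and 4.52 ± 1.05 in the controls (SD, n = 2 each), and the 2 control values, 5.27 and 3.78, lay on either side of the wh7 values.

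RpLP0, RpS2 and sta had the largest gaps between libraries of a genotype. Control 2 was at 1.79 times control 1 for RpLP0, 1.70 times for RpS2 and 1.59 times for sta. RpL10Ab, noted after its values were seen, followed at 1.49 times, and the other 73 genes ranged from 1.11 to 1.34 times. Relative to the median of the set in the same library, RpLP0 stood at -0.84 in control 1 and -0.27 in control 2 on the log2 scale, with the wh7 libraries between them at -0.41 and -0.48. The median gap of the set was 1.18 times, and these 4 genes were named for their wide gaps, so exceeding it follows from that choice. Without control 1 the change was 0.052 for RpLP0, -0.038 for RpS2 and 0.11 for RpL10Ab. Without control 2 it was 0.89 for RpLP0, 0.72 for RpS2 and 0.68 for RpL10Ab, and limma called each of these. In these genes control 2 lay far above control 1, so leaving it out raises the change. With control 1 alone, the spread between controls drops out of the test, so calls in that fit cannot show a change beyond it. RpLP1 was at 0.29 without control 1 and at 0.65 without control 2, and RpLP2 at 0.17 without control 1 and at 0.52 without control 2. Both were called without control 2 and not without control 1. RpL3, RpL4, RpL8, RpL11, RpL23, RpL34b and RpS28b were also called without control 2.

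**Figure D3:**
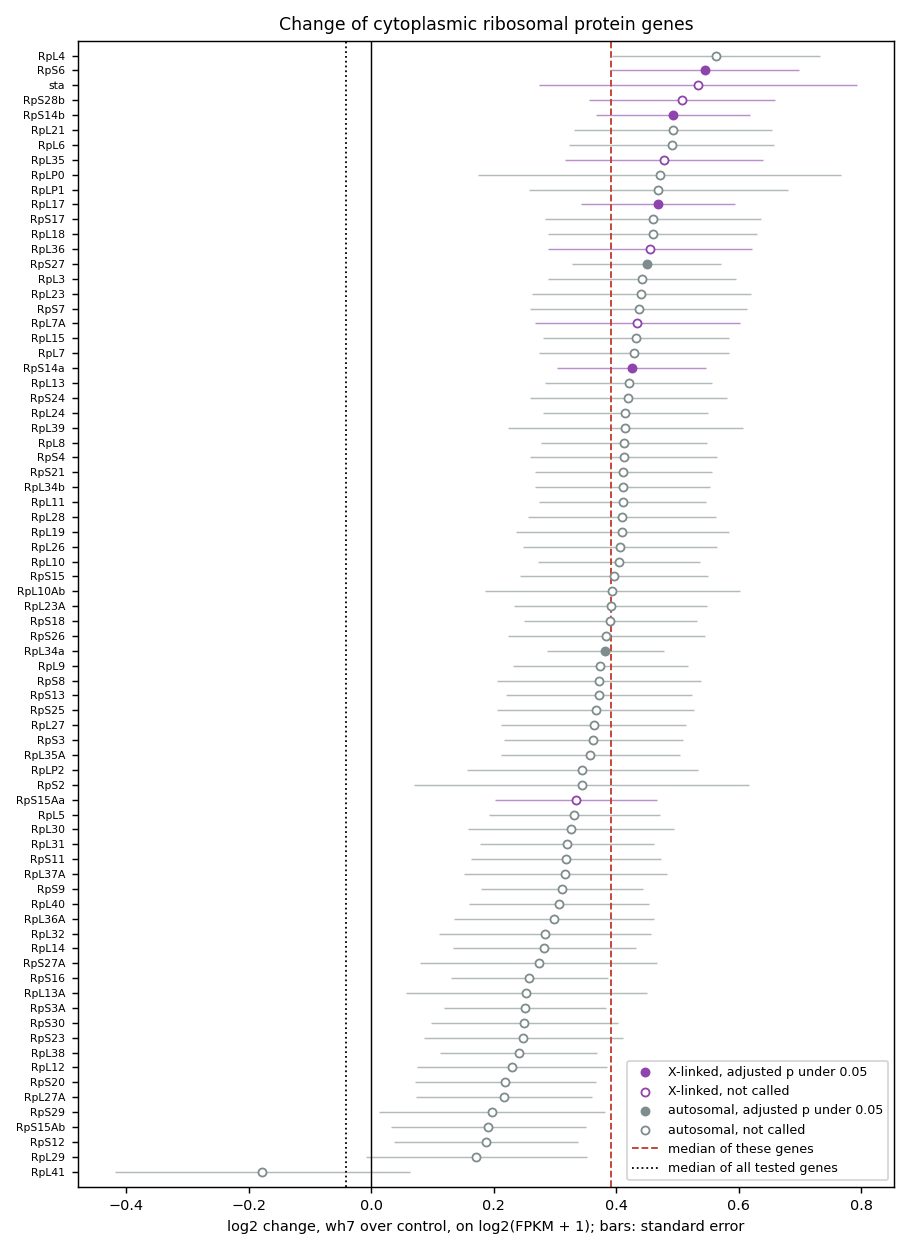
Log2 change of the tested genes, 1 of them not drawn, wh7 over control, with its standard error from limma, ranked from the largest (top) to the smallest. Filled points were called (adjusted p under 0.05), purple marks X-linked genes, and the dashed and dotted lines mark the medians of these genes (0.39) and of all tested genes (-0.041); RpL41 is the only gene left of 0.

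RpL41 was the only one of the 77 genes with a lower mean in wh7. It encodes the shortest protein of the set, of 25 residues, and had the highest level of all 79 genes. It was at 5189.8 and 6235 FPKM in the wh7 libraries, against 5924 and 6995 FPKM in the controls, so the groups overlapped (change -0.18 ± 0.241 SE; limma adjusted p = 0.583). The value moved with single libraries. It was -0.30 when control 1 was left out and -0.059 when control 2 was. Leaving out wh7 1 gave -0.046 and leaving out wh7 2 gave -0.31, and it was called in none of these 4 fits. As a share of the summed FPKM of the set, however, RpL41 held 2.74% and 3.16% in wh7 and 4.30% and 4.23% in the controls, without overlap (exact permutation p = 0.33, the smallest possible). After each library was scaled to the median of the set, a choice made after seeing the data, RpL41 was the only ribosomal protein gene called, at -0.54 (limma adjusted p = 8.31e-06). That scaling makes the spread of these genes small by construction, and over all genes it called 36.1% lower and 17.2% higher. Its transcript is annotated at 320 nt, and the deposited locus of 36662 bp joins it to the sodium channel gene NaCP60E on the other strand. Whether reads of NaCP60E entered the value was not tested.

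In each of the 5 remaining gene pairs 1 copy had the higher level in both genotypes. RpL34b was at 2169 and 2201 FPKM in the wh7 libraries, against 1519 and 1779 FPKM in the controls, and its ratio to RpL34a was 5.31 ± 0.152 in wh7 and 5.20 ± 0.102 in the controls (SD, n = 2 each). RpS15Aa was at 1454 and 1599.6 FPKM in the wh7 libraries, against 1129 and 1295 FPKM in the controls. RpS15Ab, its copy on 2R, was at only 32.3 and 32.6 FPKM in the wh7 libraries, against 24.4 and 32.7 FPKM in the controls, and the ratio of the 2 was 47.0 ± 2.90 in wh7 and 42.9 ± 4.68 in the controls. The genotypes overlapped in these ratios (exact permutation p = 0.667 for each of the 3, RpS14 included). RpS28b was at 2924 and 3042 FPKM in the wh7 libraries, against 1965 and 2242 FPKM in the controls. Its copy RpS28a failed the filter, at 0.414 and 0.857 FPKM in wh7, which is about 2.49 and 5.0 reads, and was listed at 0 in both controls. RpL10Ab was at 1003 and 1011 FPKM in the wh7 libraries, against 628 and 935 FPKM in the controls, and its copy RpL10Aa was listed at 0 in all 4 libraries. RpL34a, RpS14a and RpS15Ab were thus the lowest of the tested genes, and the other 74 had means between 806 and 6086 FPKM.

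The 10 X-linked genes had a median log2 change of 0.47, with 10 of 10 higher and 4 called, against 0.37 on the autosomes, with 2 called. The summed FPKM of X-linked over autosomal genes was 0.147 and 0.144 in wh7 and 0.132 and 0.133 in the controls, a gap wider than the spread within either genotype (mean 0.146 ± 0.00191 in wh7 and 0.133 ± 0.000388 in the controls, SD, n = 2 each; exact permutation p = 0.33, the smallest possible). Across all 1528 tested genes of the X the median change was -0.042, with 21.2% called higher, which is the share found over all tested genes. This split was made after values had been seen. RpS3A, the only member on the fourth chromosome, was at 1248 and 1395 FPKM in the wh7 libraries, against 1033 and 1189 FPKM in the controls, a change of 0.25, while the 80 tested genes of that chromosome had a median of 0.32.

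The 27 genes that host annotated small nucleolar RNA genes in their span, 60 in all, had a median change of 0.37, and the 50 tested genes without one 0.40. The 23 genes that overlap a gene on the opposite strand had a median of 0.37, and the 54 without such overlap 0.41. The library kit keeps strand, but whether the counting used it was not stated in the sources at hand, so reads of such partners may be mixed. The 77 genes share libraries and are not independent. Across them Pearson's r of the change was 0.067 with log2 mean level, 0.50 with log2 protein length and 0.45 with log2 median transcript length. Without RpL41 the last 2 of these were 0.33 and 0.35 across 76 genes. FPKM is itself scaled to transcript length, and the part of that scaling was not tested.

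**Figure D4:**
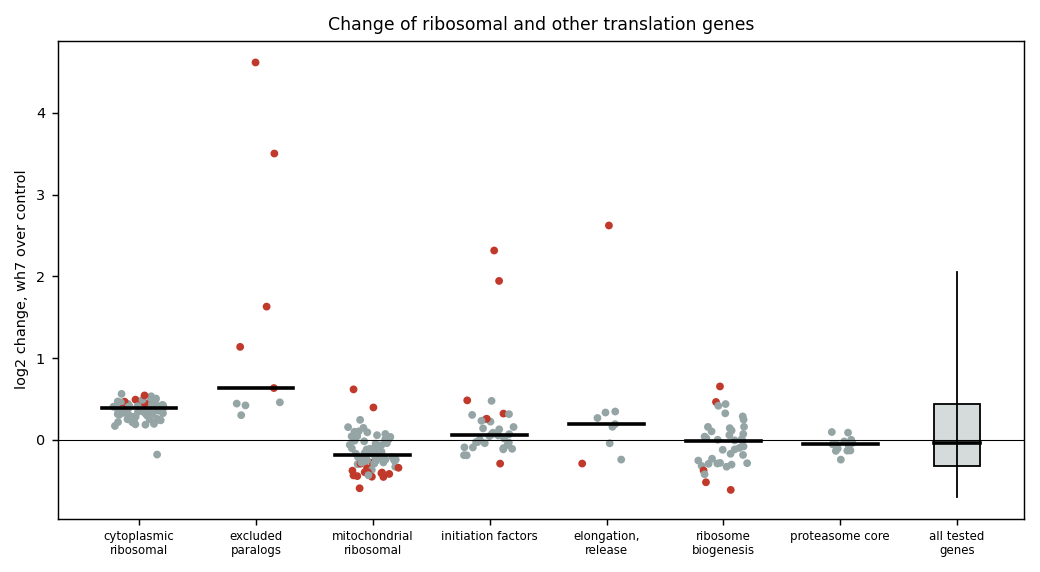
Log2 change, wh7 over control, of cytoplasmic ribosomal protein genes and of 6 other gene lists. Each point is a tested gene, red where limma called it, black lines are medians, and the box for all tested genes spans the 25th to 75th percentile with whiskers to the 5th and 95th; the first group is a tight band around 0.39 and the mitochondrial group centres at -0.18.

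Other genes of translation are given for comparison. Their counts of calls are to be read beside the shares of all tested genes, 21.2% called higher and 18.4% called lower. The 72 mitochondrial ribosomal protein genes, which serve the separate ribosomes of mitochondria, had a median change of -0.18, with 2 called higher and 15 lower. They summed to 3712 and 3957 FPKM in wh7 and to 4141 and 4443 FPKM in the controls. The cytoplasmic set exceeded this sum 51.0-fold and 49.9-fold in wh7 and 33.3-fold and 37.2-fold in the controls, without overlap (exact permutation p = 0.33, the smallest possible). mRpL14, with the largest called fall in that list, was at 44.2 and 42.7 FPKM in the wh7 libraries, against 64.3 and 67.6 FPKM in the controls (limma adjusted p = 0.00993). mRpL27 was the larger of the 2 that rose, at 61.6 and 60.9 FPKM in the wh7 libraries, against 39.3 and 39.9 FPKM in the controls (limma adjusted p = 0.00850).

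The 9 paralogs that the rule left out had a median change of 0.63, with 5 called higher and 0 lower. Their changes reached 4.61 for RpS19b and 3.50 for RpS10a, which averaged only 1.85 and 2.08 FPKM in the controls. At higher levels, RpS5a and RpL22 were also called, with changes of 1.14 and 0.63. RpS19a, RpS10b and RpS5b changed by 0.42, 0.44 and 0.30, within the range of the set, and were not called. These 5 were named after their values were seen. Translation initiation factors had a median of 0.065 over 36 genes, with 5 called higher and 1 lower. The largest of these rises were in eIF4E-3, a form of the cap-binding protein known from the male germline, at 6.0 and 5.18 FPKM in the wh7 libraries, against 0.264 and 0.382 FPKM in the controls, and in Thor, which encodes the 4E-BP inhibitor of cap-dependent translation, at 309 and 369 FPKM in the wh7 libraries, against 81.5 and 92.9 FPKM in the controls. Thor rose by 1.94 (limma adjusted p = 0.00374). Among the initiation factors of highest level, eIF-4a changed by 0.48 ± 0.139 (SE; limma adjusted p = 0.0513) and pAbp by 0.32, while eIF-4E changed by -0.19. They were chosen after their values were seen, and were not called. Among 9 elongation and release factors the median was 0.19, with 1 called higher and 1 lower. The called rise was in Ef1alpha100E, a second gene for the factor that delivers tRNA, at 15 and 17.1 FPKM in the wh7 libraries, against 1.72 and 1.82 FPKM in the controls. The called fall was in NAT1, a relative of the initiation factor eIF4G that this list also held. NAT1 was at 280.2 and 277 FPKM in the wh7 libraries, against 328 and 354 FPKM in the controls (limma adjusted p = 0.0454). EF2 and Ef1gamma, of the highest level in this list, changed by 0.35 and 0.27, and Ef1beta by -0.041. They too were chosen after their values were seen, and were not called. Nascent chain and ribosome-associated factors had a median of 0.065 over 4 genes with 0 called, and Rack1, which sits on the head of the small subunit, was at 2581 and 2703 FPKM in the wh7 libraries, against 1868 and 2159.8 FPKM in the controls (change 0.39 ± 0.151; limma adjusted p = 0.0953). Tctp, a growth-related protein found with ribosomes, was at 1701 and 1727 FPKM in the wh7 libraries, against 1784 and 1823 FPKM in the controls. Of 4 tested genes named as ribosomal protein-like, 2 were called higher, RpL22-like and RpL7-like. RpL22-like was near 0, at 3.52 and 2.94 FPKM in the wh7 libraries, against 0.0858 and 0 FPKM in the controls. RpL7-like was at 183 and 205 FPKM in the wh7 libraries, against 153 and 157 FPKM in the controls.

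The 39 genes of ribosome biogenesis, which process and modify ribosomal RNA and assemble the subunits, had a median of -0.00899, with 2 called higher and 3 lower. Rrp4, a subunit of the RNA exosome, rose, averaging 69.5 ± 1.32 FPKM in wh7 and 43.9 ± 5.14 FPKM in the controls (SD, n = 2 each; limma adjusted p = 0.0147). Nop60B, the pseudouridine synthase of box H/ACA particles, fell, averaging 297 ± 28.7 FPKM in wh7 and 453 ± 7.92 FPKM in the controls (SD, n = 2 each; limma adjusted p = 0.0141). The proteasome core, another large complex made in fixed proportions, had a median of -0.055 over 13 genes, with 0 called by limma. Prosbeta4 was at 260.2 and 247 FPKM in the wh7 libraries, against 273 and 281 FPKM in the controls, and Prosalpha6 at 252 and 221 FPKM in the wh7 libraries, against 247 and 271 FPKM in the controls. Rpt4, an ATPase subunit of the proteasome cap, was at 168 and 142 FPKM in the wh7 libraries, against 131 and 142 FPKM in the controls (limma adjusted p = 0.238). Among 18 regulators of growth and ribosomal stress the median change was -0.049, with 8 of 18 above 0. Of the 18, 5 were called higher and 3 lower, against 21.2% and 18.4% of all tested genes. Xrp1, a transcription factor induced in flies that lack ribosomal protein gene copies, was at 137 and 245 FPKM in the wh7 libraries, against 22.8 and 22.3 FPKM in the controls (change 2.97 ± 0.281; limma adjusted p = 0.00586). Another 3 of the called genes were chosen after their values were seen. crc, the fly ATF4, was at 389 and 436 FPKM in the wh7 libraries, against 166 and 198 FPKM in the controls (change 1.18 ± 0.121; limma adjusted p = 0.00656). S6k, the kinase of the RpS6 protein, was at 94.7 and 98.1 FPKM in the wh7 libraries, against 78.0 and 76.4 FPKM in the controls (limma adjusted p = 0.0281). M1BP, a factor known to bind ribosomal protein promoters in flies, was at 26.5 and 29.8 FPKM in the wh7 libraries, against 41.1 and 38.1 FPKM in the controls (change -0.48 ± 0.106; limma adjusted p = 0.0279).

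The number of calls varied with the setting, for these genes and for all genes. After quantile normalization 4 of the 77 were called higher, against 12.8% of all tested genes, and after median ratio scaling 11, against 20.4%. With no filter 0 of the 79 were called, against 5.42% of all genes. Leaving out control 1, wh7 1 or wh7 2 left 0 called, where 7.93%, 13.3% and 8.66% of all tested genes were called higher in that order. With a replicate block 13 were called, against 21.9%, and with crossed numbers 0, against 19.3%. Equal sums of the FPKM of all other genes gave 57, against 22.4%.

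**Figure D5:**
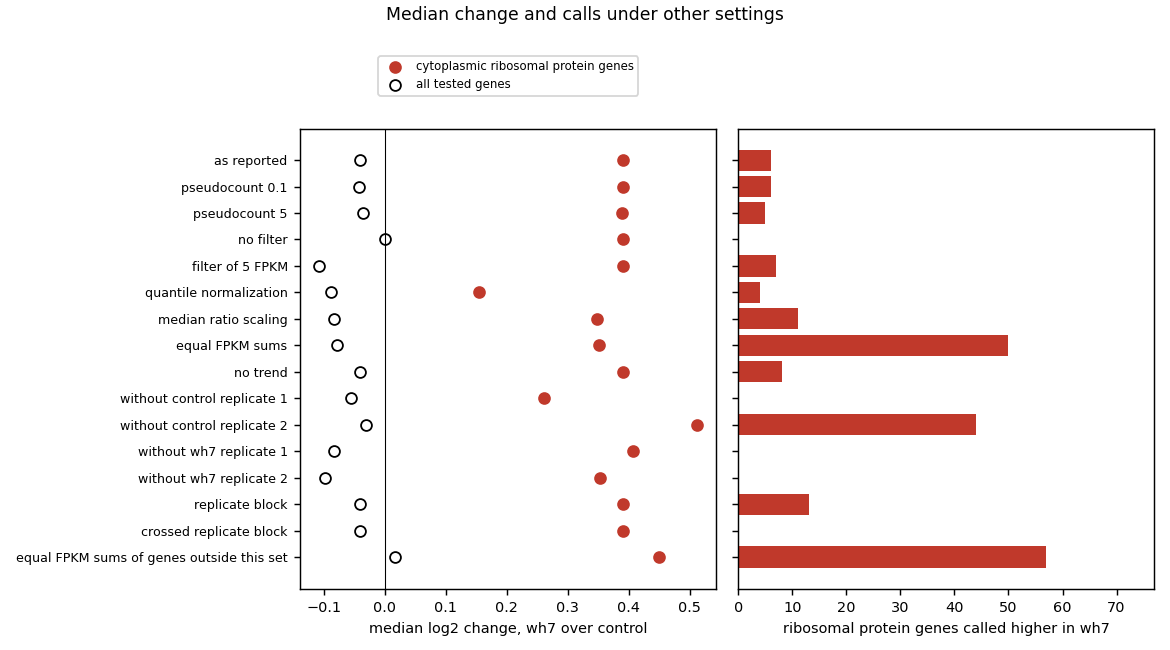
Left, median log2 change of the cytoplasmic ribosomal protein genes (red) and of all tested genes (open) under each setting; right, how many of the 77 (79 with no filter) were called higher. The scaling to the set's own median is not drawn. In the settings drawn the red median lies between 0.15 and 0.51, and the number called runs from 0 to 57.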

How the data were processed

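Libraries from total RNA were made with a strand-specific Agilent kit and read as single ends of 75 bp, per the labels' protocols. The submitters' processing notes name bcl2fastq 2.0 and Bowtie 0.12.2, and list BDGP6 and mm8 as builds with no role given. The authors deposited FPKM per library and per genotype, with 0.0001 standing for 0, per the file headers. They also deposited, for each gene, the wh7 to control ratio, that ratio on a log2 scale, its p-value and its q-value. The program and test behind these were not given in the sources at hand. All 4 library columns were used and 0 were left out.

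limma 3.58.1 (R 4.3.3) was run with its trend option on log2(FPKM + 1) for the 8580 genes that reached 1 FPKM in 2 or more libraries, with Benjamini-Hochberg adjustment over all of them. This scale understates the change of low genes. Gene coordinates and lengths came from an Ensembl BDGP6 annotation, where 75 of the 79 genes matched by identifier and 4 by symbol, 79 on the same chromosome and 56 with the same start and end once 1 was added to the deposited start. Exact permutation tests used the 4 libraries. Other pseudocounts, filters, scalings, a replicate block and leaving out each library were tried as alternatives. A planned search for promoter motifs was not run.

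The members and lists were chosen with earlier results of these data known. Of the symbols in the lists eEF1alpha1, eEF5, eEF3 and Bicc were not matched. Genes were named by rule: up to 8 called rises and falls, the 5 highest and 5 lowest levels, sta, sop, the 3 stalk genes, RpS6, RpS3, genes failing the filter, a and b pairs, the 3 largest gaps within a genotype, and up to 2 per list. Values of 1 gene that this rule names are not reported here, and it stays in the counts and sums.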

Additional observations from a re-analysis of the deposited data

How the results depend on the processing

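The median change of the set was above 0 in each setting run, and scaling to its own median fixes it near 0 by construction (0.029). The number of calls varied. The median log2 change was 0.39 as reported, 0.26 to 0.51 when 1 library was left out, and 0.15 after quantile normalization, which also gave a gain of 2.04 percentage points in the share of all FPKM, against 5.19 as reported. When 1 library was left out that gain was between 4.39 and 5.99 points, and the difference in the ratio of large to small subunit FPKM was between -0.0333 and 0.0110. The count of genes called higher, 6 of 77 as reported, was 0 of 79 with no filter (5.42% of all tested genes), 11 after median ratio scaling (20.4%), 4 after quantile normalization (12.8%), 50 with equal FPKM sums (20.3%), 3 without the 5 pairs, and 0 to 44 when 1 library was left out. Another 2 scalings were added after seeing the data. Equal sums of the FPKM of all other genes gave 57 called higher (22.4% of all), and scaling to the median of the set gave 0 higher (17.2%) and 1 lower (36.1%). With the replicate block the count was 13 (21.9%). The labels do not say that equal numbers mark a shared batch, and deviations of libraries with the same number correlated at -0.165 across 8580 genes; with the crossed block, added after seeing the data, the count was 0 (19.3%). For single genes 3 directions reversed: RpS15Ab was at -0.012 and RpS2 at -0.038 without control 1 (0.72 without control 2), and RpS29 at -0.016 after quantile normalization. The causes were not tested. Of the other values of named genes, 246 kept their side of the threshold, 37 lost a call and 29 gained one. Depth limits RpS28a, at about 2.49 and 5.0 reads in the wh7 libraries.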
